A study of Mus musculus with 17 samples.

Results

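The sites described here are CpG-rich promoter sites that carried little methylation in young blood. DNA methylation was measured by DREAM, in which SmaI cuts unmethylated CCCGGG sequences and XmaI then cuts the methylated ones, so that the end of each read records the state of its site. Members were chosen by a rule that used both sequence and the AL-young readout. An autosomal site was kept when it had at least 100 reads in at least 13 of 17 mice, a mean of methylated reads under 5% in the AL-young mice, and 500 bp of surrounding sequence with at least 50% GC and CpGs at 0.6 or more of the number its base composition predicts. It also had to lie near a transcription start, no more than 1000 bp upstream and no more than 500 bp downstream. Of 173449 sites in the tables, 15742 passed the depth filter, 10220 of these were under 5% in AL-young mice, 8548 of those were CpG-rich, and 6853 were at a promoter. These 6853 sites belonged to 3318 genes, lay on all 19 autosomes and numbered 200 to 598 per autosome. At least 100 reads were present in all 17 mice at 5783 of them.

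All 17 mice were C57BL/6, an inbred strain, and whole blood was the tissue throughout. The 5 AL-young mice were 4 months old and ate ad libitum (AL), the 7 AL-old mice were 29 to 33 months old on the same feeding, and the 5 CR-old mice were under caloric restriction (CR) at 32 to 38 months. The AL-young and CR-old groups each held 2 females and 3 males, and the AL-old group held 5 females and 2 males. CR-old mice were therefore not younger as a group than AL-old mice. Whole blood is a mixture of leukocytes, so a change in the proportions of cells and a change within a cell type cannot be told apart here. Numbers such as AL-old 27 name single mice.

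In vertebrate genomes most CpG dinucleotides are methylated, while CpG-rich promoters usually stay free of methylation in normal tissue whether or not their gene is active. Methylation of such a promoter goes with stable silencing, as on the inactive X chromosome and at imprinted genes. Gain of methylation at CpG-rich promoters, often those of developmental genes, is a known feature of ageing and of cancer.

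The sequences around 7 sites are shown so that the CpG-rich context can be seen, with CCCGGG, the measured site, in capitals. They are plus-strand reference sequence of mm9, 60 bases on either side of the site. The first 6 are among the 7 sites with the largest AL-old to CR-old difference, and the last is a ribosomal protein promoter that differed little, shown for contrast.
Fam189a1, chr7:72301070-72301195: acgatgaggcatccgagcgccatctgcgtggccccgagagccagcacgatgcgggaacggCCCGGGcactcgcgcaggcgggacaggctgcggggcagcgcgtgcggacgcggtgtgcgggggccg
Rnf217, chr10:31329097-31329222: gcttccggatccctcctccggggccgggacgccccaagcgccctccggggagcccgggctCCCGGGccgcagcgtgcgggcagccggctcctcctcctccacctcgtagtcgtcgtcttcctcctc
Gm15723, chr10:114238734-114238859: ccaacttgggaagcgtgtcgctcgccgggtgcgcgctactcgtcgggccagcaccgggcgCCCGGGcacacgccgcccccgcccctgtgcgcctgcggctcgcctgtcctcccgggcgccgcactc
Epb4.1l3, chr17:69506511-69506636: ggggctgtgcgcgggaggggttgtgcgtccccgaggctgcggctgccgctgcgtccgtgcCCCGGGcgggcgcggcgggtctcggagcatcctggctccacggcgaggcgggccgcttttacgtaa
Zfpm2, chr15:40486635-40486760: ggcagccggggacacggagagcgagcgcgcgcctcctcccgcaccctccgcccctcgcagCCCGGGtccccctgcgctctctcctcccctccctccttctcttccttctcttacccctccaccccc
Fam19a5, chr15:87374988-87375113: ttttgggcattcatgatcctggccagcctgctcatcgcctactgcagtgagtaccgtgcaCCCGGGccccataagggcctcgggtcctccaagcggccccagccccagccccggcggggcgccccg
Rps13, chr7:123478008-123478133: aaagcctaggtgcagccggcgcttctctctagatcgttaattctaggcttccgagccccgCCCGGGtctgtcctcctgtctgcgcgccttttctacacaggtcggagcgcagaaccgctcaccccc
The 126 bases held 20 CpGs at Fam189a1 and Gm15723, 19 at Epb4.1l3, 15 at Rnf217, 11 at Zfpm2 and at Rps13, and 9 at Fam19a5. GC content ran from 61.9% at Rps13 to 78.6% at Gm15723.

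Depth ran from 6.41 to 51.6 megareads per mouse, and a value at a member rested on a median of 466 reads. At 466 reads a share of 10% had a 95% Wilson interval from 7.67 to 13.2%, and a count of 0 allows a share of up to 0.644%. These limits cover counting error only. Some of the spiked standards read lower in some libraries, and the authors' correction factor was 0.872 to 1.13 in 11 mice and 1.40 to 3.96 in the other 6. The standards differed in this. In the 6 mice Kan_1 averaged 11.6%, against 33.7% in the 11, but Gfp_1 averaged 41.7% against 40.8%. Those 6 high-correction mice comprised all 5 females of the AL-old group and CR-old 06, also a female, so the correction factor and the AL-old females cannot be told apart. The adjusted percent multiplies by this factor the odds of methylation after adding 0.5 to the methylated and 1 to all reads, so that it is above 0 at sites without a methylated read. Percentages below are raw shares of reads unless called adjusted. At 100 CpG-rich promoter sites on the X chromosome the 9 females had medians of 20.5 to 38.4% and the 8 males 0 to 1.49%, in keeping with the labelled sex.

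Promoter methylation was low in every group and spread widely only among AL-old mice. The mean over the members was 0.303 ± 0.0425% (SD, n = 5) in AL-young mice. It was 1.26 ± 1.25% (n = 7) for the AL-old and 0.386 ± 0.0785% (n = 5) for the CR-old group. AL-old mice ran from 0.263% in AL-old 08 over a median of 0.943% to 3.96% in AL-old 27, and the CR-old mice ran from 0.265 to 0.477%. Thus 6 of the 7 AL-old mice lay above every CR-old mouse, and AL-old 08 lay among the AL-young mice, whose values were 0.236 to 0.341%. On the adjusted scale the AL-old mice ran from 0.704 to 3.87% and the CR-old mice from 0.495 to 0.606%, without overlap. The median site differed by 0 points between the old groups, because most members read at or near 0 in all mice. Values were as low as 0 at 32.7 to 62.6% of members in AL-young, 54.0 to 70.5% in AL-old and 54.9 to 64.3% in CR-old mice.

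**Figure D1:**
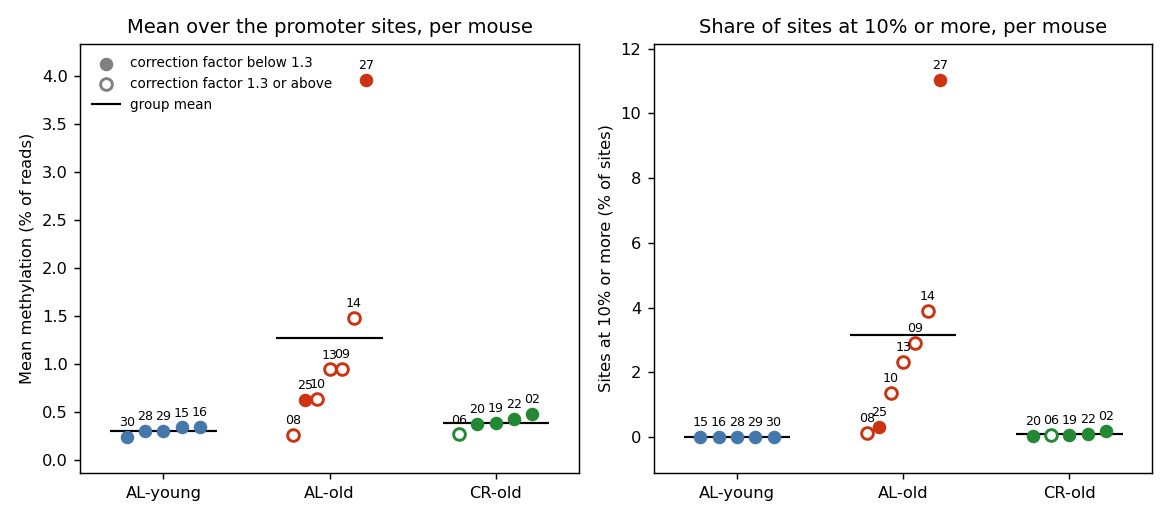
Each point is 1 mouse, labelled with its number; the left panel gives the mean percentage of methylated reads over the promoter sites and the right panel the percentage of sites at 10% or more. AL-old 27 stands at 3.96% and 11.0%, above every other mouse, while the CR-old mice lie between 0.265 and 0.477% on the left; open symbols are mice with a correction factor of 1.3 or above.

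The difference lay in a minority of strongly methylated sites. No AL-young mouse had a member at 10% or more, but the rule had kept the mean of these mice under 5% at every member. CR-old mice had 0.0438 to 0.190% of their members there, and AL-old mice had 0.140% in AL-old 08, 0.319% in AL-old 25, 1.36% in AL-old 10, 2.32% in AL-old 13, 2.90% in AL-old 09, 3.91% in AL-old 14 and 11.0% in AL-old 27. In numbers this was 9 sites in AL-old 08 and 663 in AL-old 27. On the adjusted scale the shares were 1.78% in AL-old 08, 0.175% in AL-old 25 and 2.42 to 10.5% in the other AL-old mice, and 0.0438 to 0.584% in the CR-old mice, with CR-old 06 highest. AL-old 08 lay within the CR-old range on the raw scale and AL-old 25 on the adjusted one. Of the 6853 members, 6094 reached 10% in no AL-old mouse, 415 in 1, 164 in 2, 96 in 3, 52 in 4, 25 in 5, 6 in 6 and 1 in all 7. Among CR-old mice 6828 members reached it in none, 22 in 1, 2 in 2 and 1 in all 5.

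Part of the sites at 10% or more in an AL-old mouse were at that level in another, while 88.9% of all members reached it in no AL-old mouse. For 6 AL-old mice, with 9 to 267 such members each, 85 to 91.0% of these were also at 10% or more in another AL-old mouse. AL-old 27 counted among the other mice. AL-old 27 shared 48.4% of its 663 sites, so the remaining sites were at that level in it alone. The 1 site at 10% or more in all 7 AL-old mice lay at the start of Gm15723, described below.

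Diet was compared next. The rule used the read depth of the old mice but none of their methylation values. The fit held all 17 mice, so the AL-young values that chose the members entered each site's estimate of the spread. With only the 12 old mice in the fit, 53 members were lower, all of them among the 125 below, and 0 were higher. edgeR's quasi-likelihood test called 125 members (1.82%) in 86 genes lower in CR-old than in AL-old mice, at a Benjamini-Hochberg adjusted p under 0.05 over all 15742 sites and at least 2 points between the raw means. The background share was 1.77% of all tested sites, so the promoters were called lower about as often as any site. The 2 members that were higher, at Etv4 and Cbfa2t3, stood against 1.65% of all sites. With unadjusted p under 0.05 there were 542 lower and 157 higher members. As the rule held members under 5% in young blood, this split of directions is given as a description.

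**Figure D2:**
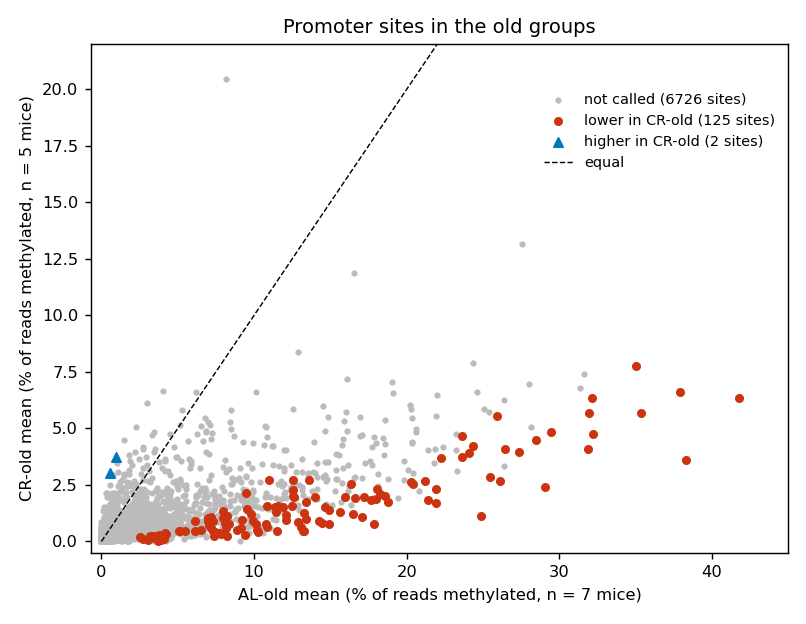
Each point is a promoter site with its AL-old mean (x axis) and CR-old mean (y axis) in percent of methylated reads. The 125 sites called lower in CR-old spread along the x axis up to 41.7% while staying at or below 7.76% on the y axis, and the dashed line marks equal means.

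At the 125 lower members the AL-old mean had a median of 12.1% (from 2.53 to 41.7%) and the CR-old mean one of 1.13% (from 0 to 7.76%), with a median difference of -10.5 points. The spread was as different as the level, with a median SD between mice of 12 points in AL-old and 0.698 points in CR-old mice. Averaged over these members, methylation was 34.6% in AL-old 27, 20.2% in AL-old 14, 18.3% in AL-old 13, 14% in AL-old 09 and 8.34% in AL-old 10. It was 3.30% in AL-old 08 and 2.56% in AL-old 25, beside 1.19 to 2.31% in the CR-old mice and 0.543 to 0.933% in the AL-young mice. The order changed on the adjusted scale, with 38.0% in AL-old 13, 32.9% in AL-old 27, 25.5% in AL-old 09, 25.0% in AL-old 14, 11% in AL-old 10, 9.69% in AL-old 08 and 2.43% in AL-old 25. The CR-old mice then had 1.33 to 4.15%, so that only AL-old 25 lay within their range. AL-old 27 was the highest AL-old mouse at 74 of the 125 sites, and AL-old 25 the lowest at 65.

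The number of calls depended on the mice and on the correction factor. Without AL-old 27 it was 83, without AL-old 09 72, without AL-old 14 67, without AL-old 08 223 and without AL-old 25 255, while leaving out CR-old 19, 20 or 22 gave 38, 31 or 37. Among the 11 low-correction mice, which hold AL-old 25 and 27 only, 57 members were called and 13 of these were among the 125. With the high or low class of factor as a covariate 37 were called, 20 of them among the 125, and with the factor as an offset 394, including all 125. The part of the correction factor in the calls was not tested beyond these fits.

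The 14 sites with the largest difference were chosen for it and had at least 100 reads in every mouse. At Gm15723 and Plcb4 the old groups did not overlap. None of the 14 passed the threshold in the low-correction mice alone, with adjusted p from 0.0530 to 0.148, and Slc9a2 alone passed with the factor class as a covariate.

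Among regulators of transcription and RNA, the first was Zfpm2, whose product is a cofactor of GATA factors in heart and gonad. Its site at chr15:40486695-40486700, in an untranslated exon 110 bp after the start, had 1.72, 1.80, 1.44, 0.769 and 0.792% in the AL-young mice, a lowest, median and highest value of 2.94, 41.6 and 70.2% in the AL-old mice, and 4.14, 6.51, 6.17, 4.00 and 2.94% in the CR-old mice. The means were 32.2 ± 26.2% and 4.75 ± 1.53% in the old groups, a log2 odds ratio of -2.87 (SE 0.792) with an edgeR adjusted p of 0.0268, and 5 of 7 AL-old mice lay above all CR-old mice. Runx1t1 encodes the corepressor ETO, known from its fusion with RUNX1 in leukaemia. At chr4:13670640-13670645, in an untranslated exon, it had 0.898 to 1.40% in AL-young mice, 5.03, 16.3 and 75.5% in AL-old mice as lowest, median and highest value, and 4.17, 6.61, 4.55, 1.92 and 2.44% in CR-old mice (edgeR adjusted p = 0.0342). Its groups overlapped through AL-old 08 and AL-old 25. Lin28b encodes an RNA-binding protein that blocks the processing of let-7. At chr10:45205680-45205685, 100 bp before the nearest start and in an intron of a longer transcript, it had 0.913 to 2.69% in AL-young, 7.02, 29.6 and 72.0% in AL-old and 6.63, 8.96, 6.44, 4.59 and 5.21% in CR-old mice (edgeR adjusted p = 0.0258).

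A pair of enzymes of glycosaminoglycan synthesis was among the 14. Chsy3, a chondroitin sulfate synthase on chromosome 18, had 0.451 to 1.37% in AL-young mice, 5.76, 35.1 and 67.9% as lowest, median and highest AL-old value, and 2.64, 6.62, 2.85, 3.60 and 4.76% in CR-old mice. It had the smallest adjusted p of the 14 (0.00365, edgeR), and 6 of 7 AL-old mice lay above all CR-old mice. Hs6st3, a heparan sulfate 6-O-sulfotransferase, was measured at chr14:119537255-119537260, 379 bp upstream of the start. It had 1.74 to 3.49% in AL-young, 4.35, 30.1 and 60.1% in AL-old and 12.1, 4.01, 3.90, 3.72 and 4.53% in CR-old mice, with CR-old 02 apart from the other CR-old mice (edgeR adjusted p = 0.0223).

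Signalling genes made up 4 of the 14. Nrg1 encodes neuregulin, a ligand of ErbB receptors, and its site at chr8:33119278-33119283, in an intron, had 0.808 to 1.95% in AL-young mice, 6.17, 23.4 and 87.4% in AL-old mice and 5.42, 6.42, 3.72, 3.98 and 4.59% in CR-old mice (edgeR adjusted p = 0.0305). The value of 87.4% belonged to AL-old 27, and the mean of the other AL-old mice was 19.8%. Fam19a5, which encodes a small secreted protein, had 1.10 to 3.34% in AL-young, 8.49, 33.8 and 85.6% in AL-old and 7.58, 13.5, 3.82, 4.33 and 9.56% in CR-old mice at chr15:87375048-87375053 in an intron (edgeR adjusted p = 0.0379). Gpr125, an adhesion G protein-coupled receptor, was read deeply, with 653 to 4867 reads per mouse at chr5:50449897-50449902 in a coding exon. It had 0 to 0.968% in AL-young, 3.03, 17.1 and 63.4% in AL-old and 3.77, 3.87, 2.43, 2.14 and 2.04% in CR-old mice (edgeR adjusted p = 0.0139). Plcb4, a phospholipase C, had reads without any methylation in 3 AL-young mice. At chr2:135484955-135484960, in an exon, it had at most 0.521% in AL-young, 3.90, 16.7 and 87.6% in AL-old and 2.32, 3.79, 1.01, 2.29 and 2.62% in CR-old mice (edgeR adjusted p = 0.0252), with every AL-old mouse above every CR-old mouse by at least 0.113 points. That smallest gap is within counting error at 180 to 1787 reads per mouse.

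The remaining sites lay at genes of the membrane, of ubiquitin transfer and of a non-coding transcript. Fam189a1, a membrane protein gene, had the largest difference. At chr7:72301130-72301135, in a coding exon 169 bp after the start, it had 3.36, 2.78, 2.11, 2.34 and 1.94% in AL-young mice, 5.24, 41.1 and 84.9% as lowest, median and highest AL-old value and 8.62, 8.06, 5.11, 3.37 and 6.51% in CR-old mice. The old means were 41.7 ± 29.1% and 6.33 ± 2.15%, the log2 odds ratio was -3.25 (SE 0.781) and the edgeR adjusted p 0.00970, with 6 of 7 AL-old mice above the CR-old range. Epb4.1l3, a cytoskeletal linker described as a tumour suppressor, had 2.33 to 4.99% in AL-young, 4.89, 19.3 and 81.9% in AL-old and 8.12, 3.70, 5.40, 4.54 and 6.63% in CR-old mice at chr17:69506571-69506576 in an intron (edgeR adjusted p = 0.0282). Slc9a2, a sodium/proton exchanger, had 0.374 to 0.837% in AL-young, 2.46, 23.3 and 47.4% in AL-old and 2.15, 1.44, 2.61, 1.22 and 1.02% in CR-old mice at chr1:40738726-40738731 in a coding exon (edgeR adjusted p = 0.00693). It was the steadiest of the 14, losing its call in only 1 of 18 alternative fits, that of the low-correction mice. Rnf217, a RING finger protein, had 0 to 1.12% in AL-young, 1.98, 26.2 and 83.4% in AL-old and 3.21, 6.63, 2.76, 1.71 and 3.63% in CR-old mice at chr10:31329157-31329162 in an untranslated exon (edgeR adjusted p = 0.00703). Gm15723, a non-coding transcript that starts beside Trhde, the gene of an enzyme that degrades thyrotropin-releasing hormone, was at 1.69 to 5.28% in young blood. Its lowest, median and highest AL-old values were 13.3, 40.7 and 77.7%, and CR-old mice had 7.18, 10.7, 3.99, 4.51 and 6.73%, at chr10:114238794-114238799 in an exon (edgeR adjusted p = 0.00738).

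**Figure D3:**
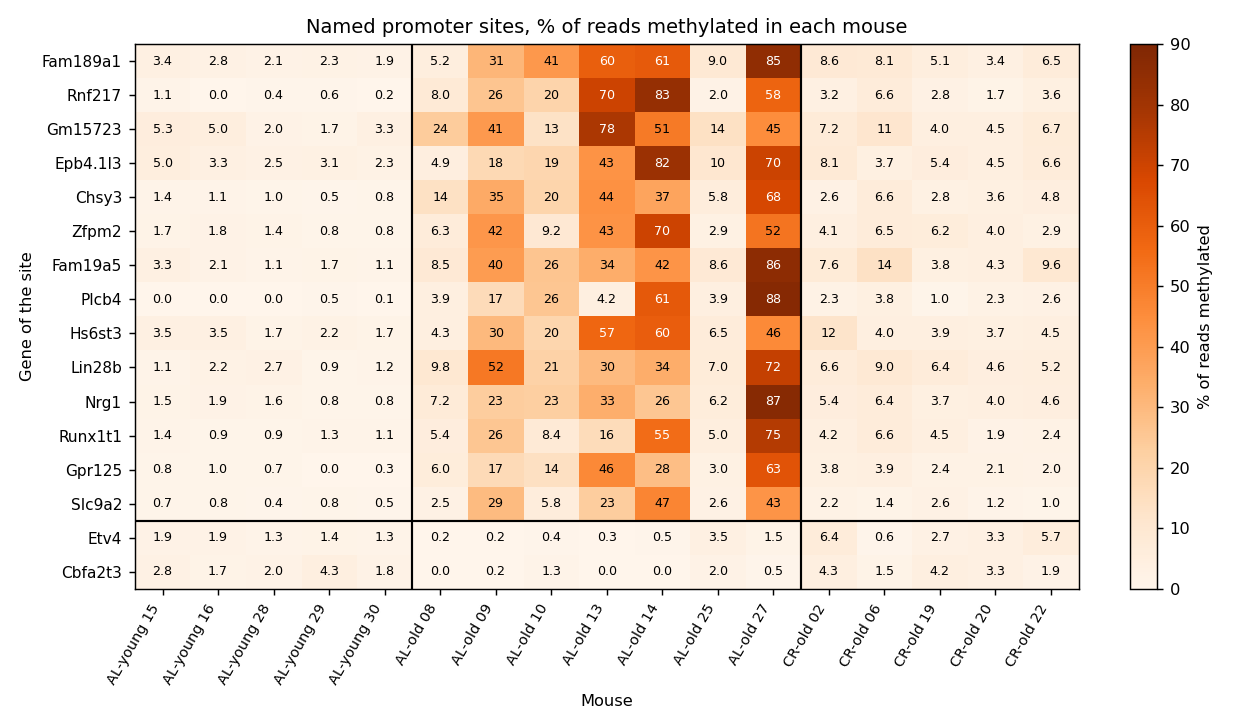
Rows are the sites named for diet and columns the 17 mice, with the percentage of methylated reads written in each cell and shown by its colour. Above the horizontal line AL-old 08 and AL-old 25 lie between 1.98 and 23.8% and AL-old 27 between 42.5 and 87.6%. Below it are the 2 sites that were higher in CR-old.

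The 2 members higher in CR-old mice were both transcriptional regulators. Etv4, an ETS family activator, had 1.95, 1.88, 1.32, 1.43 and 1.3% in AL-young mice, 0.165 to 0.496% in the 5 AL-old females, 3.47% in AL-old 25, 1.51% in AL-old 27 and 6.43, 0.556, 2.68, 3.34 and 5.72% in CR-old mice at chr11:101645570-101645575 in a coding exon (edgeR adjusted p = 0.0382). Cbfa2t3, a blood corepressor of the same family as Runx1t1, had 1.72 to 4.28% in AL-young, 0 to 1.26% in the 5 AL-old females, 1.99% in AL-old 25, 0.476% in AL-old 27 and 4.29, 1.48, 4.23, 3.28 and 1.92% in CR-old mice at chr8:125201692-125201697 in an intron (edgeR adjusted p = 0.0437). At both sites the lowest CR-old value belonged to CR-old 06, the only high-correction mouse of its group, and neither was called in the low-correction mice (adjusted p from 0.267 to 0.380, edgeR). The adjusted percentages were 0.420 to 3.07% in AL-old and 1.03 to 5.94% in CR-old mice at Etv4, and 0.200 to 1.96% and 2.15 to 4.73% at Cbfa2t3. At Cbfa2t3 the groups thus overlapped before the adjustment and not after it.

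Few sites separated the old groups completely, and these were picked after their values were seen. Of the 99 lower members with at least 100 reads in all 12 old mice, 11 had every AL-old mouse above every CR-old mouse. Among all tested sites 34 of the 279 lower ones were so separated, which is 0.216% of the 15742, so separation was not more frequent at the members. Beside Gm15723 and Plcb4 they lay at Phyhipl, Slitrk5, Myrip, Lrig3, Bnc2, Ctnna2, Pam and, with 2 sites, Satb1. Phyhipl had 7.08 to 44.6% in AL-old and 1.89 to 5.74% in CR-old mice. Slitrk5, a neuronal transmembrane protein gene, had 4.05 to 43.6% and 2.30 to 2.91%. Ctnna2, the neural alpha-catenin gene, had 3.79 to 29.3% and 0.738 to 2.80%. Satb1, a chromatin organizer needed in T cell development, had low values throughout. At chr17:51952648-51952653, 18 bp after a start, 4 AL-young mice and all 5 CR-old mice had no methylated read, while the AL-old mice had 0.431, 0.508, 1.76, 2.30, 0.872, 0.556 and 19.5% (edgeR adjusted p = 0.0137). Apart from AL-old 27 these values were at most 2.30%. The site had 142 to 1211 reads per mouse, and at 466 reads a count of 0 allows a share of up to 0.644%. The lowest AL-old values lay below that limit, so the separation at this site is within counting error. The same holds for the gaps of 0.0346 points at the other Satb1 site, 0.0554 at Lrig3, 0.113 at Plcb4, 0.157 at Pam and 0.396 at Bnc2. At the remaining sites the gaps were 0.989 points at Ctnna2, 1.07 at Myrip, 1.15 at Slitrk5, 1.34 at Phyhipl and 2.64 at Gm15723. Whether these exceed counting error was not tested. At 100 reads a share of 10% had a 95% Wilson interval from 5.52 to 17.4%.

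Age is described without a reading, since AL-young values chose the members. The same test called 364 members (5.31%) in 210 genes higher in AL-old than in AL-young mice, beside a background of 3.9% of all sites, and 5 members lower, beside 5.86%. In the low-correction mice 780 were higher and none lower. The 6 largest differences not named above were at Fbxl7, Kif21a, Mal2, Adcy2, Tcf20 and Fzd10. Fbxl7, an F-box protein gene, had 1.19 to 2.88% in AL-young mice and 2.13, 11.2 and 82.0% as lowest, median and highest AL-old value, with CR-old mice at 2.36 to 7.56%. Kif21a, a kinesin gene, had 1.03 to 1.65%, then 3.33, 15.8 and 81.2%, and 3.26 to 5.50% in CR-old mice. Mal2, a gene of membrane transport, had 2.34 to 4.17%, then 8.80, 24.7 and 53.1%, and 3.82 to 8.72% in CR-old mice. All 7 AL-old mice lay above all CR-old mice at Mal2, whose diet contrast just missed the threshold (edgeR adjusted p = 0.0512). The smallest gap at Mal2 was 0.0783 points, which is within counting error at 250 to 2401 reads per mouse. Adcy2, an adenylyl cyclase gene, had 0.383 to 3.71%, 1.62 to 70.6% and 1.86 to 5.93% in the 3 groups. Fzd10, a Wnt receptor gene, had 0.680 to 3.05%, 1.70 to 62.0% and 2.97 to 8.56%. Tcf20, a transcriptional coregulator gene, had 0 to 0.658% in AL-young, 0.676 to 70.8% in AL-old and 0.643 to 8.92% in CR-old mice, and was the only 1 of these 6 whose diet contrast was called (edgeR adjusted p = 0.0342).

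The 5 members called lower in AL-old than AL-young mice, picked after their values were seen, lay at AW146020, C1ql4, Bscl2, Bmp6 and C330018D20Rik. At Bmp6, a bone morphogenetic protein gene, the site at chr13:38437805-38437810 had 3.28 to 5.13% in AL-young mice, 0.229 to 1.43% in the 5 AL-old females, 5.65% in AL-old 25 and 1.17% in AL-old 27. The CR-old values were 5.74, 0.177, 6.28, 5.84 and 4.36%, the lowest again in CR-old 06. At the other 4 sites AL-old 25 likewise had the highest AL-old value, from 3.60 to 7.53%. AL-old 27, a low-correction mouse, was at 0 to 0.455% in the 3 of them where it had 100 reads.

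CR-old and AL-young mice are likewise set side by side without a reading. No member was called in either direction between CR-old and AL-young mice with edgeR, where 0% of all tested sites were called higher and 0% lower. The smallest adjusted p of a member was 0.0848, and at an unadjusted p under 0.05 there were 180 higher and 98 lower members. With only the mice of these 2 groups in the fit, 47 members were called higher and 1 lower, and limma called 0 and 0. In group means, 8.27% of members were at 1% or more in AL-young, 18.1% in AL-old and 10.6% in CR-old mice, and 0, 239 and 3 members were at 10% or more.

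Those 3 members of CR-old mice were noticed after their values were seen. A site 8 bp before the start of 4933403G14Rik, at chr8:128193755-128193760, had 26.8, 18.5, 18.1, 18.3 and 20.6% in CR-old mice, 1.54 to 7.34% in AL-young mice and 1.82 to 12.8% in the 4 AL-old mice with 100 reads. The old groups did not overlap there, and the edgeR contrast missed the threshold (log2 odds ratio 1.5, SE 0.669, adjusted p = 0.234). The others were a pair of sites at Nptx2, the gene of a neuronal pentraxin. At chr5:145306748-145306753 the CR-old values were 12.5, 5.89, 33.7, 7.55 and 6.12% and at chr5:145306473-145306478 they were 12.4, 3.57, 31.5, 4.40 and 7.48%. CR-old 19 was the highest of its group at both, and AL-old mice had 4.70 to 62.8% and 2.07 to 42.5%.

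The rule's limit of 5% separated sites of like value. Just inside it were Tbx3 with an AL-young mean of 4.77%, 4833428L15Rik with 4.91% and Nptx2 with 4.93%. Just outside were Ano5 and Itpripl2 with 5.05% each and Aldh1a2 with 5.07%.

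Developmental and neural genes were then read against housekeeping genes with 15 lists, which together held 747 members and 19 of the 125 lower ones. The remaining 106 were in no list. Counts below are to be set beside 1.82% for all members and 1.77% for all sites tested.

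Among transcription factors of development, 3 of 112 members of homeobox, paired and T-box genes were lower in CR-old mice (2.68%) and the median difference was -1.08 points, against 0 points over all members. They lay at Irx3, Irx5 and Barhl2, of which the Iroquois genes pattern limbs and neural tissue. Irx3, read 934 to 8870 times per mouse, had 0.176 to 0.697% in AL-young, 1.18, 5.75 and 22.1% in AL-old and 1.82, 0.882, 0.783, 0.775 and 0.876% in CR-old mice (edgeR adjusted p = 0.0278). In the list of Fox, Sox, Gata and bHLH factors 3 of 56 members were lower (5.36%, median difference -1.12 points), at Sox11, Zic2 and Sox9. Both medians rest on group means, and the old groups overlapped in both lists. Mean methylation per mouse over the homeobox list was 0.707 to 11.3% in AL-old and 0.581 to 1.35% in CR-old mice. Over the Fox, Sox, Gata and bHLH list it was 0.563 to 14.4% and 0.577 to 1.25%. Sox11, a neural transcription factor, had 0.856 to 2.12%, then 1.52, 8.24 and 48.8%, and 1.72, 2.42, 2.20, 1.36 and 1.92% (edgeR adjusted p = 0.0429). Its mean in AL-old mice without AL-old 27 was 13.3%. None of 7 Hox members passed, and the deepest, Hoxd1, had 0.962 to 36.3% in AL-old and 1.37 to 2.73% in CR-old mice (edgeR adjusted p = 0.0876). Gata5, the deepest of its list, had 0 to 1.34% in AL-old and 0.349 to 1.58% in CR-old mice (edgeR adjusted p = 0.296).

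Among signalling genes of development (Wnt, BMP, FGF and hedgehog), 3 of 61 members were lower (4.92%), in 2 genes. Bmper, a secreted BMP regulator, had 0 to 0.437% in AL-young mice and 0.429, 0.805, 0, 0.254 and 0% in CR-old mice. The AL-old mice had 0.538, 14.7, 1.71, 21.9, 6.97, 1.18 and 18.7%, and 6 of 7 lay above all CR-old mice (log2 odds ratio -4.29, SE 0.925, edgeR adjusted p = 0.00357). It was called in all 18 alternative fits, with edgeR or limma adjusted p from 0.000404 to 0.0463. The other list genes described here lost their call in part of these fits, Irx3 in 9, Barhl2 in 9, Irx5 in 11, Sox11 in 11, Sox9 in 12, Zic2 in 7, Inhbb in 13, Gria4 in 12, Bcl11b in 8, Npas2 in 8 and Ptprg in 9, with highest adjusted p of 0.0897 at Bcl11b to 0.183 at Gria4. Inhbb, an activin subunit gene, had 0.307 to 8.30% in AL-old and 0 to 0.371% in CR-old mice (edgeR adjusted p = 0.0438). In the list of neurotransmitter and neuropeptide genes 2 of 38 were lower (5.26%), the Gm15723 site at Trhde and a site of Gria4, an AMPA receptor subunit. Gria4 had 5.41 to 41.6% in the 6 AL-old mice with 100 reads and 0.932 to 3.87% in CR-old mice (edgeR adjusted p = 0.0479). Of 67 members of ion channel genes none was lower.

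Of 77 members of blood lineage transcription factors 1 was lower (1.3%), a share near that of all members, at Bcl11b, which is required for T cell identity. Its site at chr12:109241450-109241455 had 0.174 to 0.652% in AL-young mice, 0.240 to 1.46% in CR-old mice and 0.866, 15.9, 2.01, 47.7, 1.62, 1.65 and 34.4% in AL-old mice (edgeR adjusted p = 0.0275). At the deepest member of this list all 7 AL-old mice read 0. It was counted for Elf1, but its nearest start, 14 bp away, was that of Wbp4. The median site of the list had 0.0207% in AL-old and 0.0290% in CR-old mice.

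Housekeeping and regulatory lists held no lower member, where the 1.82% of all members would give few or none in lists of their size. These were 107 members of DNA methylation and chromatin regulators, 79 of nutrient sensing and insulin signalling, 31 of ribosomal proteins and 37 of proteasome, mitochondrial and tRNA synthetase genes, along with 3 of germline genes and 1 protocadherin. Mean methylation per mouse was 0.00811 to 0.109% over the ribosomal protein members in AL-old mice and 0.0105 to 0.0851% over the chromatin regulators. At Rps13, shown above, the AL-old values were 0 in 4 mice and at most 0.192%, and the CR-old values were 0 in 4 mice and 0.0764% in CR-old 19. At Hdac1, a histone deacetylase gene, no mouse exceeded 0.114%, and at Prkag2, a subunit gene of the energy sensor AMPK, none exceeded 0.355%.

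Genes known to be methylated in tumours held the largest share of lower members, 5 of 52 (9.62%), with a median difference of -0.0712 points. These 5 sites lay in 3 of the 24 genes of the list that had members, so they are not independent. Among them were sites of Epb4.1l3 and of Ptprg, a receptor tyrosine phosphatase gene. Ptprg had 3.23 to 69.3% in 6 AL-old mice and 1.69 to 7.47% in CR-old mice (edgeR adjusted p = 0.0290). Of 33 members of circadian clock genes 2 were lower, both at Npas2, a paralogue of Clock. Npas2 had 0 to 0.438% in AL-young, 0.124, 6.41 and 28% in AL-old and 0.624, 0.293, 0.281, 0.661 and 0.407% in CR-old mice (edgeR adjusted p = 0.0258). AL-old 08 and AL-old 25 lay below all CR-old mice at this site.

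Some neighbouring sites of a promoter were called together. Of the 86 genes with a lower member, 70 had several members, 27 had at least 2 lower ones and 15 had all of them lower. Where 1 site of a pair was lower, both were lower in 6 of 10 pairs under 100 bp apart (60%), in 28 of 75 pairs 100 to 299 bp apart (37.3%) and in 16 of 63 pairs farther apart (25.4%). Sites of a promoter share DNA molecules and are not independent.

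Satb1 and Slc9a2 had 4 lower sites each, the most of any gene, and were picked for this count. In Slc9a2 they lay at chr1:40738070-40738731 with AL-old means of 10.2, 6.52, 7.61 and 21.9% and CR-old means of 0.511, 0.527, 0.370 and 1.69%, in their order along the chromosome. The fifth site, at chr1:40738892-40738897, had 6.34 and 2.07% and was not called (edgeR adjusted p = 0.450). In Satb1 the AL-old means were 3.05, 3.95, 3.70 and 3.71% and the CR-old means 0.0857, 0.187, 0 and 0.0732%. Axin2, a scaffold of Wnt signalling, had 3 lower sites with AL-old means of 7.48, 2.72 and 8.22% and CR-old means of 0.390, 0.119 and 1.13%.

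**Figure D4:**
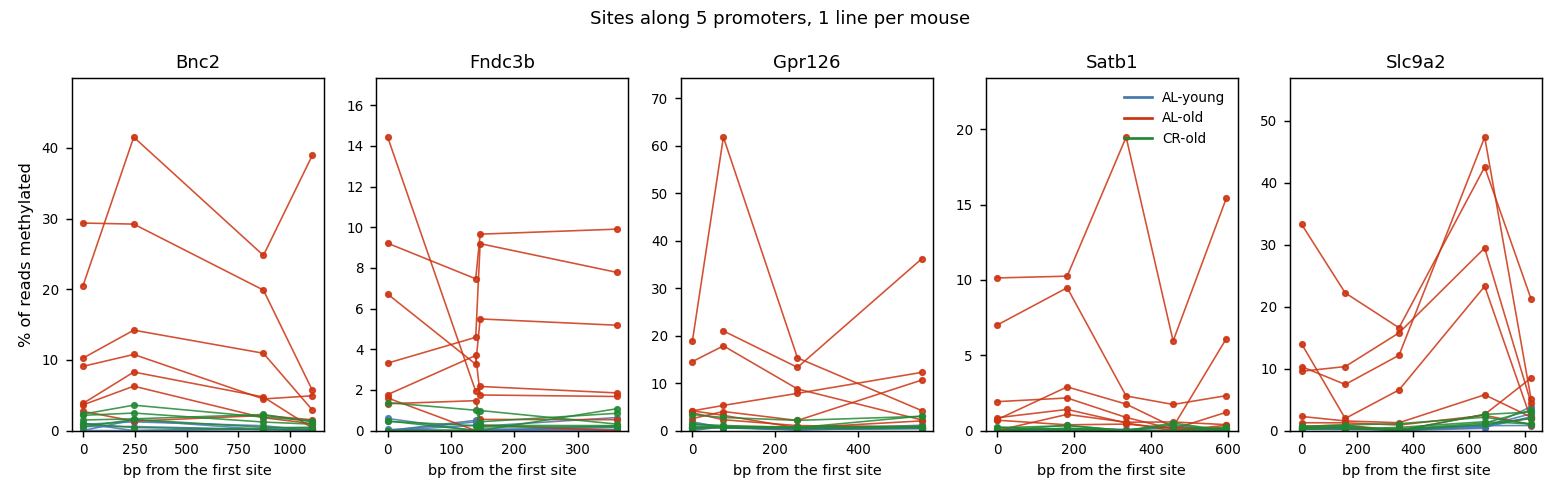
Each panel is the promoter of a gene with at least 3 lower sites and at least 4 sites in all, and each line joins the percentage of methylated reads of 1 mouse along the sites (x axis, bp from the first site; the y axes differ). In Slc9a2 the highest AL-old value is 47.4% at the fourth site, and at the fifth site the groups overlap.

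Members nearer the start carried less methylation in each group. Over the 275 members more than 500 bp before the start the mean was 1.94% in AL-old mice (lowest and highest mouse 0.358 and 5.89%) and 0.607% in CR-old mice. Over the 2382 members from 0 to 199 bp after it the mean was 1.12% (0.246 and 3.43%) and 0.345%. From far upstream to 500 bp downstream the 5 bins had 1.45, 2.47, 1.67, 1.81 and 1.82% lower members, without a trend. Members with the most GC had the higher AL-old level, with 0.989% in the lowest of 4 GC classes of like size (50.0 to 65.0%) and 1.5% in the highest (73.6 to 86.0%), while CR-old means were 0.399 and 0.366%. The corresponding shares of lower members were 0.621 and 2.90%. The 4 classes were not compared by a test.

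**Figure D5:**
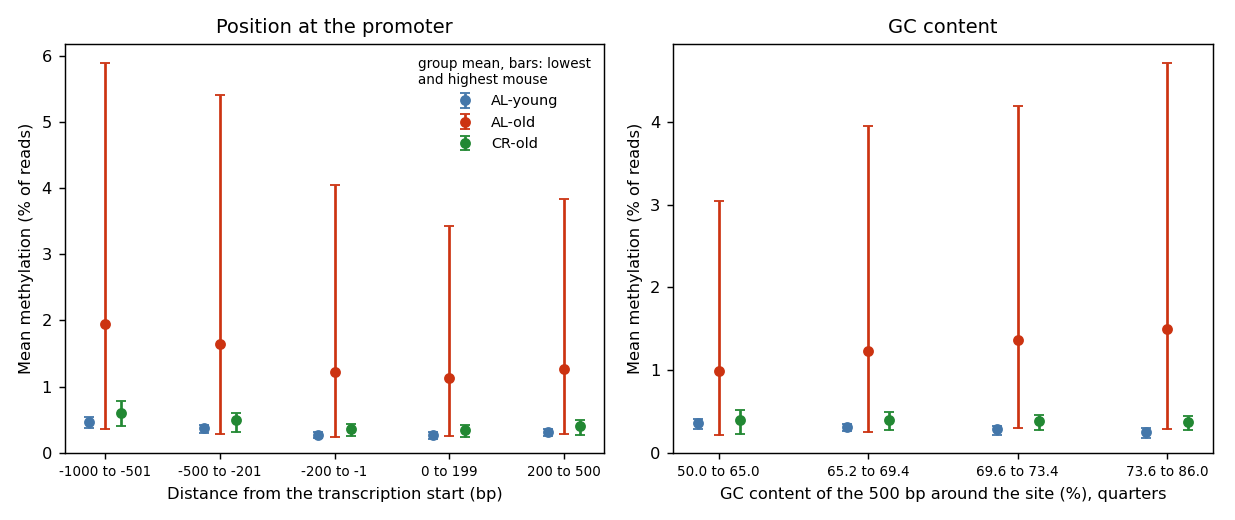
Points are group means of per-mouse methylation (percent of reads) by distance from the transcription start (left) and by class of GC content (right), and bars run from the lowest to the highest mouse of the group. AL-old means fall from 1.94% far upstream to 1.12% just after the start and climb from 0.989% to 1.5% with GC content, while the CR-old means fall from 0.607% to 0.345% by position and are 0.399% and 0.366% in the outer GC classes.

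The lower members had a median GC content of 72.6% against 69.4% for all members, 56 against 50 CpGs in the 500 bp, and a CpG-rich span of 1140 against 960 bp. They were read less, with a median of 452 against 587 reads per mouse, and of 4 classes by reads the deepest had 1.05% lower members and the shallowest 2.28%. Promoters with starts on both strands had 1.16% lower among 1120 members and the others 1.95% among 5733.

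Short motifs were searched on both strands of the 500 bp windows. GGGCGG, bound by Sp1 factors, was in 86.3% of members, 88.0% of the lower members and 58.0% of the windows of all tested sites. CCAAT was in 28.7, 23.2 and 34.7% and CTTCCGG, an ETS motif, in 13.5, 8.80 and 9.04%. TATAAA was in 3.81, 2.40 and 8.41%, CACGTG in 11.1, 7.20 and 10.0% and TGCATG in 8.19, 9.60 and 14.3%. TGACGTCA, GCATGCGC and AAGATGGC were in 1.88, 2.79 and 4.54% of members and in 1.11, 1.80 and 3.62% of the windows of all tested sites. AL-old methylation was lower where the ETS motif was present, 0.671% over 924 members against 1.36% over the others, and CR-old methylation was 0.249 against 0.407%. These matches are a description of the windows and were not tested.

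Young-unmethylated CpG-rich sites elsewhere read higher. The 1268 gene body sites averaged 2.06 ± 1.89% over 7 AL-old mice and 0.771 ± 0.192% over 5 CR-old mice, and the 427 intergenic sites 2.5 ± 2.35% and 0.800 ± 0.183%. AL-young mice had 0.602 ± 0.0721% and 0.620 ± 0.0787% (n = 5). Of the gene body sites 25 (1.97%) were lower in CR-old than AL-old mice and 1 higher, and of the intergenic sites 18 (4.22%) and none. AL-old 27 was the highest mouse there too, with 6.13 and 7.53%, against 3.96% at the promoters. The difference between promoters and these sites was not tested.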

How the data were processed

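Whole-blood DNA of 17 mice was profiled by DREAM. The authors mapped the reads to mm9 and deposited, for each mouse and CCCGGG site, the counts of methylated and unmethylated reads. The deposited tables also hold a raw percent and a percent adjusted on spiked standards, the latter equal to the odds, with 0.5 added to methylated and 1 to all reads, multiplied by 1 correction factor per mouse. The submitters' processing notes name Bowtie2 and SAMtools without versions, and mm9 and mm10. Percent values were recomputed here as methylated over all reads at sites with at least 100 reads, and starts were taken from GENCODE vM1.

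Counts of all 15742 autosomal sites that passed the depth filter were fitted with edgeR 4.0.16 in R 4.3.3 by the quasi-likelihood F test, with a coefficient for each mouse and 1 dispersion (0.291) for all sites. A site was called at a Benjamini-Hochberg adjusted p under 0.05 with raw group means at least 2 points apart. The contrasts share mice. p-values measure the spread between these mice. Members and gene lists were chosen with earlier results of these data known. Named were the 14 called members with the largest fall and up to 6 with the largest rise from AL-old to CR-old, the 6 with the largest rise with age, and in each list up to 3 called genes and the deepest member, with 100 reads in all mice for the first 3 sets and 1 site per gene and per 10000 bp. A gene that this rule names is not reported here. Alternatives were the correction factor as offset, covariate or filter, the mice of the compared groups alone, sex, limma 3.58.1 on log2 ratios, other depth and size limits, and leaving out each mouse. Python 3.11.15 with pandas 2.3.3, numpy 2.4.6, scipy 1.17.1 and matplotlib 3.10.9 was used for the rest. The fit was also run on simulated reads that had the same spread in every group. The old groups here differed in spread, so that run does not show how the fit behaves on them. Sites on the sex chromosomes entered only the check of labelled sex.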

Additional observations from a re-analysis of the deposited data

Results flagged for a closer look

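A mouse that stood apart from the rest of its group by Dixon's criterion was found in 7 of 71 groups of values examined. The criterion flags about 1 in 20 sets of independent, normally distributed values. These percentages are skewed, share mice and come mostly from sites picked for a large difference, so the 2 rates are not compared. AL-old 27 stood apart in the mean over the promoter sites (3.96%), in the share of sites at 10% or more (11.0%) and at the Nrg1 site (87.4%). AL-old 13 stood apart at the Tcf20 site (70.8%) and AL-old 25 at the Etv4 site (3.47%). CR-old 02 stood apart at the Hs6st3 site (12.1%) and AL-young 29 at the Plcb4 site (0.521%).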

How the results depend on the processing

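Members lower in CR-old than AL-old mice (125) numbered 394 with the correction factor as an offset, 37 with its class as a covariate, 57 in the low-correction mice, 53 with only the mice of the groups compared, 47 with limma and 25 at 500 reads, and 31 to 255 when 1 mouse was left out. Members higher in CR-old mice (2) numbered 1, 0, 0, 0, 1 and 1 in the same order, 0 with sex as a covariate, 6 with no smallest difference, 0 with 5 points, and 0 to 4 when 1 mouse was left out. Members with more methylation in AL-old than in AL-young mice (364) numbered 548 with the offset, 780 in the low-correction mice, 86 at 500 reads and 291 to 417 when 1 mouse was left out. Members lower in AL-old than AL-young mice (5) numbered 3 with the offset, 0 with the covariate, 0 in the low-correction mice, 3 with only the mice compared, 1 at 500 reads, 37 with no smallest difference, 0 with 5 points and 3 to 10 when 1 mouse was left out. Members higher in CR-old than AL-young mice (0) numbered 1 with the offset, 2 with the covariate, 2 in the low-correction mice, 47 with only the mice compared, 2 with sex, and 0 to 1 when 1 mouse was left out. Members lower in that contrast (0) numbered 1 with only the mice compared. The mean over members was 0.962 points for AL-old minus AL-young (0.512 to 1.13 without 1 mouse), and the median over members reversed to -0.0109 points. The mean was -0.879 points for CR-old minus AL-old, from -1.05 to -0.429 without 1 mouse, -1.42 on the adjusted percent, -1.88 in the low-correction mice, -0.483 in females and -1.90 in males. The AL-old side of the low-correction and male values is the same 2 mice, AL-old 25 at 0.621% and AL-old 27 at 3.96%. These 2 values are thus not independent, and all 5 AL-old females were high-correction mice, so sex and correction cannot be told apart here. Of 29 named sites called for diet, 2 were called with the covariate, 2 in the low-correction mice, 10 with only the mice compared, 8 with limma and 6 to 29 when 1 mouse was left out. The cause of these changes was not tested, other than that fewer sites were tested at 500 reads and fewer mice entered the reduced fits. No paired analysis was possible because the groups share no replicate numbers. At 100 reads a count of 0 allows a share of up to 3%, so differences among sites near 0 were not detectable in the shallow libraries.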
